A study of Mus musculus with 14 samples.

Results

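Nuclei of blood vessel endothelium were taken from 2 libraries of nuclei of mouse colon muscularis, the muscle coat of the gut wall. A nucleus was selected on its RNA: it carried at least 2 unique molecular identifiers (UMIs, counted RNA molecules) summed over the 5 endothelial genes Pecam1, Cdh5, Ptprb, Flt1 and Cyyr1, and none of Flt4 or Mmrn1 (lymphatic endothelium), Pdgfra (fibroblast-like cells), Epcam (epithelium) or Elavl4 (neurons). Only barcodes with at least 300 genes and at most 5% of UMIs from mitochondrially encoded genes were considered, which left 4533 of the 5640 deposited barcodes. The members were 97 of these 4533 nuclei: 41 of 2837 in the WT library and 56 of 1696 in the KO library. The libraries shared 11 barcodes, of which 4 were among the nuclei kept in both, and no member was among them.

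Endothelial cells line the inside of every blood vessel. They sense vascular endothelial growth factor (VEGF) through Flt1 and Kdr and angiopoietins through Tek, hold together through junction proteins such as Cdh5, Esam and Cldn5, release nitric oxide through Nos3 and store von Willebrand factor for clotting. Transcription factors of the ETS family (Erg, Fli1) and SOX family (Sox17, Sox18) maintain this state, and arteries, capillaries and veins each carry their own set of genes, with Bmx, Gja5 and Sox17 typical of arteries and Nr2f2, Selp and Vwf typical of veins. In the gut the muscle coat has its own vessels, which lie beside lymphatic vessels lined by a related endothelium marked by Prox1, Flt4, Reln and Lyve1.

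The study concerns Carmn, which encodes a long RNA with no protein product and is known from smooth muscle, and compares mice labelled "Carmn iKO" (called KO here) with mice labelled "WT mTmG" (called WT), all of strain C57BL/6. Nuclei came from flash-frozen colon muscularis, with 1 library per genotype, so KO and WT nuclei are set side by side without a test. Bulk RNA libraries of the same tissue layer, 3 per genotype from colon and 3 per genotype from jejunum, are samples that the selection of nuclei did not use, and their depth was 24254905 to 44315104 counts. How Carmn was deleted and in which cells, how old the mice were and whether they were treated is not stated in the labels. They also do not say whether libraries came from separate animals, so p-values measure only the spread between libraries, which may be technical.

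The targeted gene followed the labels in nuclei and went against them in bulk. Carmn had 655.6 CPM (counts of a gene per 1000000 counts, in nuclei its UMIs per 1000000 summed UMIs of a group of nuclei) in the other WT nuclei and 224.6 in the other KO nuclei. In the bulk libraries of colon labelled KO it had 461 (m1), 304 (t4) and 718 (t6) CPM, against 252 (t1), 172 (t6) and 352 (t7) in those labelled WT (log2 fold change 0.94, SE 0.34, adjusted p = 0.234 by edgeR's quasi-likelihood test). In jejunum it had 996 (m1), 818 (t1) and 909 (t4) CPM in the libraries labelled KO against 240 (t1), 206 (t6) and 326 (t7) in those labelled WT (log2 fold change 1.82, SE 0.34, adjusted p = 0.0646). The deposited counts are per gene and do not tell which part of Carmn was deleted. Bulk libraries are therefore called by their labels below, and every bulk direction rests on those labels.

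Of the genes highest in the members, 14 of the leading 20 had a usable RefSeq window of the 250 bases before a transcription start (GRCm38.p6). A window was used only if its start lay within 1000 bp of the start listed for the gene with the nuclei counts. Shown are 6, because their genes lead the members' RNA and differ in how often they hold a motif. The motif is AGGAAG or, on the other strand, CTTCCT, a form of the site that ETS factors such as Erg and Fli1 are known to bind. No other motif was searched. Each is printed 5′ to 3′ on the strand of its gene, with the matches in capitals. The windows are Flt1 (chr5:147726012-147726261, minus strand), Egfl7 (chr2:26580833-26581082, plus strand), Gm5127 (chrX:106582936-106583185, plus strand), Adgrl4 (chr3:151437632-151437881, plus strand), Robo4 (chr9:37401722-37401971, plus strand) and Edn1 (chr13:42301226-42301475, plus strand).
Flt1: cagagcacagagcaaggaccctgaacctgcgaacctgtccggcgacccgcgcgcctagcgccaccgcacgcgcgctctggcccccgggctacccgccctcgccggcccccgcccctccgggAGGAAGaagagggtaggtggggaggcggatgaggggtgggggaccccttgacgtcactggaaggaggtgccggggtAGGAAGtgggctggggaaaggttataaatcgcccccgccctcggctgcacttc
Egfl7: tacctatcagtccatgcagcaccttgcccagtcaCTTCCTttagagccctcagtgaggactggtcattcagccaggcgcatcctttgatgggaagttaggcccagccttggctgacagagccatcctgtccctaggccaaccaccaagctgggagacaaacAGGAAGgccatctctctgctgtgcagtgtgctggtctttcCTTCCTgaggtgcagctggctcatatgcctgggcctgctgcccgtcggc
Gm5127: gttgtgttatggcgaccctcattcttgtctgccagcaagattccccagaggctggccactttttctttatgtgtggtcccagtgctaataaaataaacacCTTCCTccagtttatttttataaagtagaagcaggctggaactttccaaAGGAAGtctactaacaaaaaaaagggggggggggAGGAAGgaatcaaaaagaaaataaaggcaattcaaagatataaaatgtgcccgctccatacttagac
Adgrl4: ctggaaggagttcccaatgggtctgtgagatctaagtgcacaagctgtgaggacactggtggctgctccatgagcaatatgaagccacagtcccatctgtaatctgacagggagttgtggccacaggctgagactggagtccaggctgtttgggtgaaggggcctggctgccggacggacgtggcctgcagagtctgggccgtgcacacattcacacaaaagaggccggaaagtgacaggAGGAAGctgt
Robo4: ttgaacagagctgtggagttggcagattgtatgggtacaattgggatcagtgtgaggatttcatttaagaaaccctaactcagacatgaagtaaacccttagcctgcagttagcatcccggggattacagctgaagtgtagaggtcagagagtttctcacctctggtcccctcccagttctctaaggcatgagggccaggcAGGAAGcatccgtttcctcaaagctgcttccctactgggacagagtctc
Edn1: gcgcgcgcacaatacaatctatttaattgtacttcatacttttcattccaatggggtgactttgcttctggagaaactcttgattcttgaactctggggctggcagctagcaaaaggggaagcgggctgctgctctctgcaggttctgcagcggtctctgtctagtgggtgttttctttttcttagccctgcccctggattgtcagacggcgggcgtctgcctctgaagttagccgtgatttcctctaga
Flt1 had 2 matches, both as written, and Egfl7 had 3, of which 2 were on the other strand. Gm5127 also had 3, Adgrl4 and Robo4 had 1 each, and Edn1 had none. The match nearest to a start among these was that of Adgrl4, which began 10 bases before it.
Across the 14 leading genes with a window, 11 (78.6%) had at least 1 match and 5 (35.7%) had 2 or more. Across the 15 of 27 endothelial panel genes with a window, 10 (66.7%) had at least 1 match and 5 (33.3%) had 2 or more. These sets overlap: Flt1, Adgrl4, Egfl7, Robo4, Ushbp1 and Cyyr1 are in both, and each had a match. Of the panel genes outside the leading ones, Tie1, Emcn, Erg and Eng had a match and Kdr, Tek, Cldn5, Shank3 and Myct1 had none. Of all 17751 genes with a window, 5141 (29.0%) had a match and 1049 (5.91%) had 2 or more. These are counts of letters and not of bound sites. The leading genes without a window within that distance were Ptprb, Bmx, Vwf, Pecam1, Nos3 and Sox17, and windows farther away were not used.

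The label was checked with 22 endothelial genes that the selection did not use. In the WT members they summed to 6793 CPM against 416.9 in the other WT nuclei, and in the KO members to 8151 against 469.6. At least 1 UMI of them was found in 37 of 41 WT members (90.2%) and 52 of 56 KO members (92.9%), against 28.9% of other WT nuclei and 38.6% of other KO nuclei. At least 5 UMIs were found in 29 and 43 members, whereas 5.69% of other WT nuclei and 7.50% of other KO nuclei reached 5. The median depth was 1370 UMIs in WT members and 1579 in other WT nuclei, and 1687.5 in KO members and 1871 in other KO nuclei, so members were no deeper than the rest. Lymphatic genes were low: their 8 markers summed to 51.8 CPM in WT members against 282 in other WT nuclei, and to 124 against 305.7 in KO, with Reln and Lyve1 at 0 in members of both libraries. The sums follow in part from the selection, which set Flt4 and Mmrn1 of the 8 to 0 in members and left the nuclei it barred among the others, but Reln and Lyve1 were not used by it. Most members thus carried endothelial RNA beyond the genes used to select them.

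The threshold of 2 UMIs cut through nuclei of low content. The 12 WT and 12 KO members with exactly 2 UMIs of the selecting genes had a median of 1 UMI of the other 22 endothelial genes in each library, and 2 and 3 of them reached 5. Just outside, the 48 WT and 40 KO nuclei with exactly 1 selecting UMI and no barring gene had medians of 0 and 1, and 7 and 1 of them reached 5. All 22 WT and all 35 KO members with at least 5 selecting UMIs also had at least 5 UMIs of the other genes, with medians of 23.5 and 25. The plot of selecting against other endothelial UMIs shows this as a cloud that rises to the right in both libraries.

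**Figure D1:**
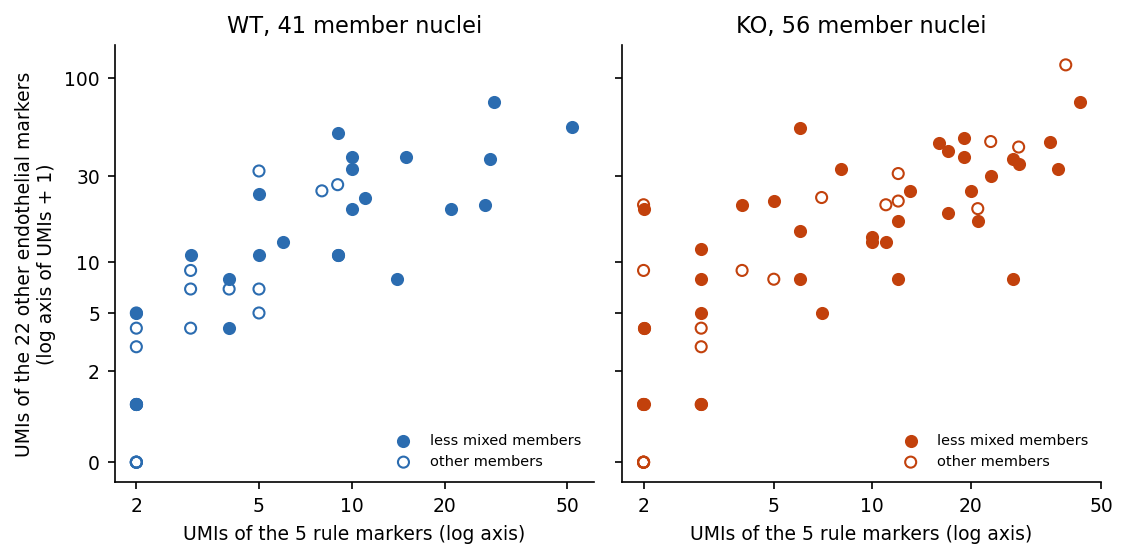
Each point is 1 member nucleus, with its UMIs of the 5 selecting markers on the horizontal axis and its UMIs of the 22 other endothelial markers on the vertical axis (both log, the vertical one of UMIs + 1), for 41 WT and 56 KO members. Filled points are the less mixed members, with at least 1 UMI of the other endothelial markers and under 3 UMIs of every marker list of another cell type, and open points are the rest; members with 5 or more selecting UMIs all lie at 5 or more of the other markers.

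Part of the members also carried RNA of other cell types. At least 3 UMIs of the markers of another type were present in 16 of 41 WT and 19 of 56 KO members. Smooth muscle markers summed to 7238 CPM in WT members, close to the 6929 of other WT nuclei, and to 3094 in KO members against 5279, with at least 10 such UMIs in 8 WT and 5 KO members. Mesothelial markers, of the outer lining of the gut, reached 10 UMIs in 0 WT and 7 KO members, and fibroblast markers in 1 WT and 5 KO members. Members above 5000 UMIs were 3 in WT and 7 in KO and held 28.9% and 44.9% of all members' UMIs. For this reason values are also given for the less mixed members, 24 in WT and 35 in KO, which had at least 1 UMI of the 22 other endothelial genes and under 3 UMIs of every other list. This subset was chosen after the data were seen, and its endothelial levels are raised by that choice. In it the smooth muscle markers summed to 267.7 and 320.8 CPM.

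Members made up 1.45% of WT nuclei (exact binomial 95% interval 1.04 to 1.96) and 3.30% of KO nuclei (2.50 to 4.27). These intervals, and the Poisson intervals below, cover counting error only, and with 1 library per genotype no difference between genotypes was tested. Among nuclei of at least 1000 UMIs the shares were 1.30% and 3.51%, and after each was thinned to 1000 UMIs they were 0.951% (19 of 1998) and 3.27% (40 of 1224). With the less mixed members alone they were 0.846% and 2.06%. The KO share was the higher in each of these settings.

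The 20 genes with the highest ratio of members to other nuclei, ranked by the lower of the 2 libraries, were Ptprb, Flt1, Bmx, Adcy4, Vwf, Pecam1, Adgrl4, Nos3, Egfl7, Robo4, Sox17, Gm5127, Rasip1, Edn1, Pkn3, Ace, Acer2, Fgd5, Ushbp1 and Cyyr1. Of these, 4 (Ptprb, Flt1, Pecam1 and Cyyr1) were used to select the nuclei, so their ratios follow from the selection. Among the others are a receptor for guidance cues of vessels (Robo4), a secreted matrix protein of endothelium (Egfl7), a GTPase effector needed for vessel lumens (Rasip1), and enzymes and peptides that act on vessel tone (Nos3, Edn1 and Ace). Ratios here and below are of CPM with 1 UMI added to each sum. Exact intervals of KO to WT ratios are of the counts without that added UMI, which matters where UMIs are few.

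Bmx, a cytoplasmic kinase of arterial endothelium, had 32 UMIs in 7 WT members (331 CPM, exact Poisson 95% interval 226.6 to 468) against 4.35 CPM in other WT nuclei, and 33 UMIs in 10 KO members (228 CPM, 157 to 320.1) against 3.32. Bmx was present in few nuclei. Vwf, the clotting factor carrier, had 47 UMIs in 19 WT members (487 CPM, 358 to 647) against 7.37, and 110 UMIs in 30 KO members (760 CPM, 624.5 to 916) against 13.5. Vwf was found in 46.3% of WT and 53.6% of KO members and in 1.57% and 1.89% of the other nuclei. Adgrl4, an adhesion receptor of endothelium, had 52 UMIs in 17 WT members (538 CPM) and 80 UMIs in 24 KO members (553 CPM), and ratios of 49.9 and 93.5. Edn1, the vasoconstrictor peptide endothelin, had 12 UMIs in 5 WT members and 32 UMIs in 12 KO members, with ratios of 32.8 and 44.2. Gm5127, a predicted gene at chrX:106583186-106710557 (GRCm38), rested on few nuclei: its 5 WT UMIs were in 2 members and its 28 KO UMIs in 6, of which 18 in a single nucleus. The plot of the 20 leading genes shows members above other nuclei in both libraries for every gene, which follows from ranking the genes by that ratio.

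**Figure D2:**
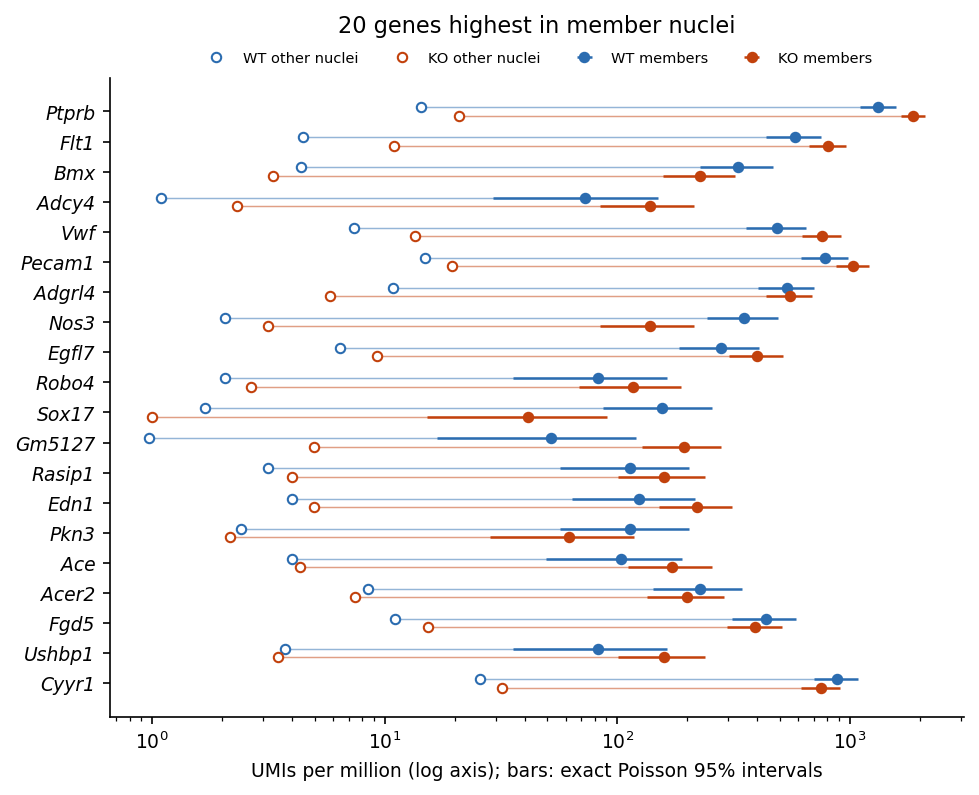
CPM (log axis) of the 20 genes highest in members, one row per gene, with WT in blue and KO in red. Filled points with exact Poisson 95% intervals are members and open points are all other kept nuclei. The genes were chosen for high ratios of members to other nuclei, so the gap in each row follows from that choice. The lowest of the 20 by rank was Cyyr1, a selecting gene, with ratios of 34.6 in WT and 23.7 in KO.

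Over the whole panel of 27 endothelial genes (5 selecting and 22 others), 21 had at least 5 UMIs in members of each library and at least 20 in all. All 21 were at least 4-fold higher in members than in other nuclei in both libraries, of which 5 were selecting genes. The 16 that the selection did not use had a median of 17.9 for the lower of the 2 ratios. Among the 2650 genes at that depth, 91 (3.43%) reached 4-fold in both libraries, and the median of all was 0.967. The 6 panel genes below that depth were Kdr, Esam, Cldn5, Plvap, Sox18 and Myct1, with 0 to 5 UMIs in WT members. A gene that reaches the depth in members alone is bound to be higher there, so the count describes the 21 genes and not the panel as a whole.

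VEGF and angiopoietin receptors differed in how far they marked the members. Tek, the angiopoietin receptor, had 26 UMIs in 12 WT members and 56 in 23 KO members, and Tie1, its partner receptor, 8 and 19 UMIs in 6 and 16 members. Kdr, the main signalling receptor for VEGF, was sparse, with 3 UMIs in 2 WT members and 24 UMIs in 13 KO members. The coreceptor Nrp2 was not raised, at ratios of 0.851 in WT and 0.523 in KO. Of the 7 ligands, Vegfc alone had 20 UMIs over both libraries; it is taken up with the arterial genes below.

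Transcription factors of endothelium were present in both libraries. Mecom, a zinc finger factor, had 277 UMIs in 30 WT members (2868 CPM, 2540 to 3227) and 397 UMIs in 37 KO members (2742 CPM, 2479 to 3026), against 217 and 193 in the other nuclei. These intervals of Mecom overlapped between the libraries. Erg had 22 UMIs in 11 WT and 41 UMIs in 24 KO members. Fli1 had 34 UMIs in 20 WT and 104 UMIs in 32 KO members, with 39 of the 104 in 1 nucleus. Epas1, a hypoxia-inducible factor, had 67 UMIs in 21 WT members and 60 UMIs in 30 KO members and ratios of 32.2 and 15.7. Of the 21 factors listed, 12 had the depth named above and 6 of those were at least 4-fold higher in both libraries.

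Genes of the vessel wall matrix did not mark the members. Of 13 basement membrane and integrin genes, 11 had the depth and none was 4-fold higher in both libraries, with a median lower ratio of 1.11. Col4a1, a chain of basement membrane collagen, had ratios of 1.39 in WT and 1.32 in KO. Of 12 junction genes, 8 had the depth and 5 were 4-fold higher in both libraries. Among these 5 were Pecam1, Cdh5 and Ptprb, whose ratios follow from the selection. Markers that belong to vessels but not to endothelium were close to or below the level of other nuclei: mural markers, of the contractile cells around vessels, summed to 373 CPM against 336 in WT and to 207 against 512 in KO.

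Some arterial, venous and capillary genes were present among the members, but not all genes of each list. In WT members 2 of 12 arterial, 4 of 11 venous and 7 of 14 capillary genes had 0 UMIs, and in KO members 1, 1 and 2. Of 114 venous UMIs in WT members 47 were of Vwf and 26 of Tek, and of 264 in KO members 110 and 56. Both genes are also in the endothelial panel, so a venous UMI alone does not mark a vein. At least 1 UMI of 12 arterial genes was found in 22 of 41 WT (53.7%) and 31 of 56 KO members (55.4%), against 14.7% and 22.4% of other nuclei. At least 1 UMI of 11 venous genes was found in 29 WT (70.7%) and 39 KO members (69.6%), against 41.3% and 46.9%. For 14 capillary and lipid handling genes the counts were 15 WT (36.6%) and 29 KO members (51.8%), against 15.0% and 15.1%. These lists do not divide the members cleanly, since 16 WT and 26 KO members had both arterial and venous UMIs, and 6 and 7 had both Bmx and Vwf. Tip cell genes, of growing vessel ends, were found in 5 members of each library (12.2% in WT and 8.93% in KO, against 9.08% and 11.8% of other nuclei), with Esm1 and Apln at 0 in both.

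The arterial members of WT carried most of the Vegfc. Vegfc encodes a growth factor known for lymphatic vessels, and these genes were chosen after their values were seen. The 11 WT members with at least 3 arterial UMIs had 48 Vegfc UMIs in 8 nuclei (1528 CPM), against 13 UMIs in 7 of the other 30 members (199.5 CPM). Jag1, a Notch ligand of arteries, had 31 UMIs in 7 of the 11 and 8 UMIs in 6 of the 30 (987 against 123 CPM). Nos3 had 28 and 6 UMIs (892 against 92.1 CPM), and Mecom 190 and 87 (6049 against 1335 CPM). Of capillary genes, Plvap had 0 UMIs in the 11 and 3 in the 30, Kdr 3 and 0, and Cd36 7 (in 1 nucleus) and 6. The same 11 also had more Pecam1 (987 against 690.5 CPM) and Vwf (637 against 414). They had less Carmn (318 against 967) and less Emcn (63.7 against 153.5). The part of endothelial content and of vessel type in these contrasts was not tested. The 8 KO members with at least 3 arterial UMIs had 4 Vegfc UMIs in 2 nuclei (121 CPM, against 53.7 in the other 48), 3 Jag1 UMIs (90.8 against 89.5) and 2 Nos3 UMIs (60.5 against 161). Mecom stood at 3541 against 2506 CPM in them, and Hey2 had 1 UMI in each set. These are sums over few nuclei of 1 library each.

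The members were set beside the endothelial nuclei that Flt4 or Mmrn1 alone had kept out, 22 in WT (median 1947.5 UMIs) and 29 in KO (median 2550). These had 3310 and 4570 CPM of the 8 lymphatic markers against 51.8 and 124 in members, which follows in part from the selection. Reln, which the selection did not use, had 203 UMIs in 20 of the 22 WT nuclei and 278 UMIs in 25 of the 29 KO nuclei, and 0 UMIs in members of either library. Prox1, the factor that sets lymphatic identity, had 288 CPM against 31.1 in WT members and 411 against 76.0 in KO members. Both sets had at least 2 UMIs of the selecting genes, but these were spread differently.

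Flt1 was low in the kept-out nuclei, with 580 CPM in WT members and 25.4 in the kept-out nuclei, and 808 against 30.4 in KO. Vwf likewise had 487 against 42.3 in WT and 760 against 15.2 in KO. Mecom had 2868 against 449 in WT and 2742 against 30.4 in KO, and Sox17 had 155 and 41.4 in members against 0 UMIs in both sets of kept-out nuclei. Ptprb was shared but lower outside, at 1325 against 271 in WT and 1879 against 258.5 in KO. Other endothelial genes did not separate the sets: Emcn had 124 against 127 CPM in WT and 214 against 236 in KO, and Shank3 155 against 195 in WT and 256 against 213 in KO. Kdr was lower in the members than in the kept-out nuclei, at 31.1 (3 UMIs) against 169 in WT and 166 against 243 in KO. The plot of members against kept-out nuclei shows Mecom, Flt1 and Vwf far above the diagonal and Kdr below it in both libraries.

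**Figure D3:**
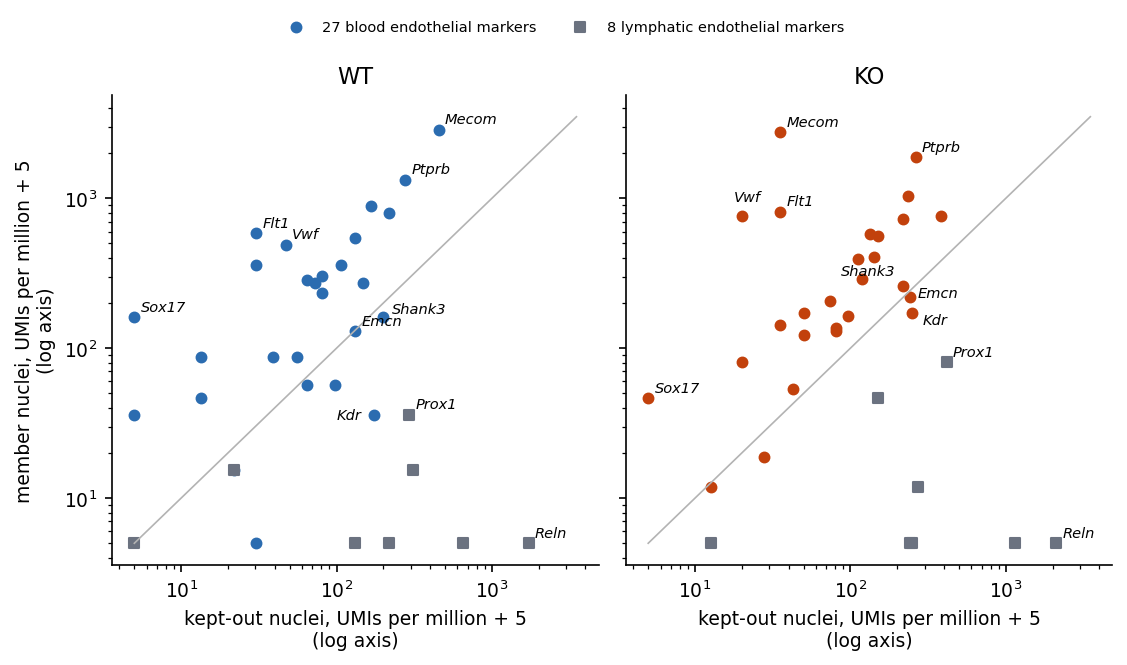
CPM + 5 (log axes) in members against endothelial nuclei kept out by Flt4 or Mmrn1 alone, for 27 blood endothelial markers (circles) and 8 lymphatic markers (squares), with a line of equal levels. In both libraries Flt1, Vwf and Mecom lie above the line, Emcn close to it, and Kdr and every lymphatic marker with a UMI in either set on or below it.

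In KO members most endothelial genes had a higher share of UMIs than in WT members, and this was smaller in the less mixed members. Of the 23 panel genes with at least 20 UMIs, 18 were above and 5 below a KO to WT ratio of 1, with a median of 1.41, against 0.987 over all 2809 genes at that depth. In the less mixed members the median was 1.05, and in members with no smooth muscle UMI it was 1.03. The 23 include the 5 selecting genes, whose levels in members depend on the selection. Of the 18 others, 14 were above and 4 below 1, with a median of 1.445, and of 1.147 in the less mixed members. At least 2-fold higher were 4 panel genes (12.5% of all genes), and at least 2-fold lower were 2 (10.1% of all genes). Shares of higher and lower genes in the panel were thus near those of all genes.

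The panel genes 2-fold higher in KO were Kdr, Esam, Cdh5 and Fli1, of which Cdh5 was a selecting gene. Kdr had a ratio of 4.17 (exact interval 1.62 to 27.7), Esam, a junction protein, rested on 4 WT and 24 KO UMIs (3.33), and Cdh5, the adherens junction cadherin, on 5 and 18 UMIs (2.11, 0.859 to 8.27). For Fli1 (2.001) the ratio was 2.06 in the other nuclei as well. The 2 genes that were 2-fold lower were Nos3, with 34 UMIs in 12 WT and 20 UMIs in 14 KO members (0.400, 0.214 to 0.702), and Sox17, with 15 UMIs in 10 and 6 UMIs in 6 members (0.292, 0.0848 to 0.728). In the less mixed members the ratios were 0.308 for Nos3 and 0.244 for Sox17, and in the other nuclei Nos3 had 1.53. The genes with the most UMIs lay nearer to 1: Mecom at 0.955, Ptprb at 1.41, Pecam1 at 1.31, Flt1 at 1.38 and Cyyr1 at 0.853. Of these, all but Mecom were selecting genes. In members with no smooth muscle UMI the ratio of Flt1 turned to 0.856 and that of Vwf from 1.54 to 0.861.

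**Figure D4:**
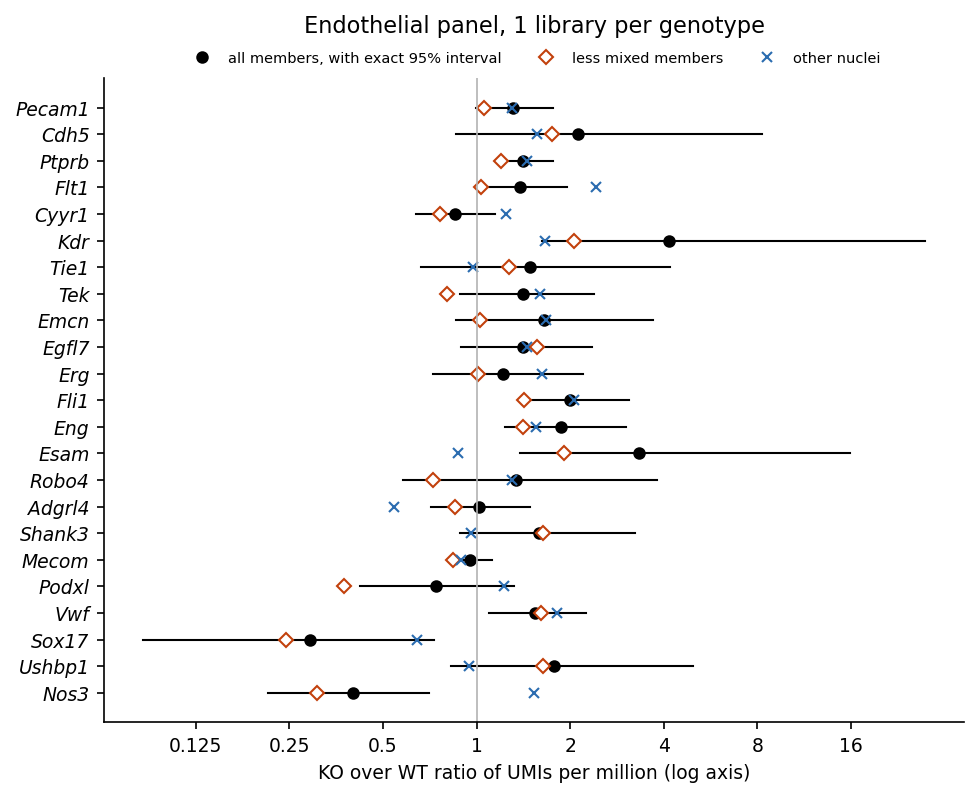
KO over WT ratio of CPM (log axis) for the 23 panel genes with at least 20 UMIs in members, 1 library per genotype. Black points with exact 95% intervals (of counts without the added UMI) are all members, open diamonds the less mixed members and crosses the other nuclei. Nos3 and Sox17 lie lowest, at 0.400 and 0.292, and Kdr highest, at 4.17.

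The few arterial and venous genes with enough UMIs differed between the libraries, while the shares of members with such UMIs were close (53.7% and 55.4% arterial, 70.7% and 69.6% venous). Of the 12 arterial genes 3 had 20 UMIs, and all 3 were below 1, with a median of 0.687, although the intervals of Bmx (0.687, 0.41 to 1.16) and Efnb2 (0.945, 0.423 to 2.31) include 1. Gja5, a gap junction protein of arteries, had 11 UMIs in 6 WT and 5 UMIs in 2 KO members. Of the 11 venous genes 6 had 20 UMIs and 5 were above 1, with a median of 1.48, the exception being Nrp2 at 0.584. Over all 2809 genes at that depth, 1398 were above and 1411 below 1. Nr2f2 (COUP-TFII), the factor that sets venous identity, had 0 UMIs in the 41 WT members, which allows up to 31.1 CPM (3 counts), and 18 UMIs in 11 KO members (124 CPM). In the less mixed members it had 0 and 5 UMIs. Selp, a leukocyte receptor of veins, had 3 and 17 UMIs. With 11 and 8 members of 3 or more arterial UMIs, the mix of vessel types and the level within each type cannot be told apart.

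Vegfc (chr8:54077606-54187096, GRCm38) had one of the lowest ratios of any gene in the less mixed members. It had 61 UMIs in 15 WT members, at most 12 in one, and 10 UMIs in 7 KO members. The ratio was 0.118 (0.04995 to 0.215) in all members, 0.110 in the less mixed members and 0.684 in the other nuclei. Jag1 had 39 UMIs in 13 WT and 13 UMIs in 11 KO members (0.234, 0.109 to 0.426), and 0.235 in the less mixed members. Hey2, a target of Notch in arteries, had 10 UMIs in 4 WT and 2 UMIs in 2 KO members. Notch1, a Notch receptor, went the other way, with 7 and 17 UMIs. In bulk, Vegfc had 15.6 (m1), 13.6 (t4) and 15.9 (t6) CPM in colon libraries labelled KO and 19.9 (t1), 17.3 (t6) and 26.4 (t7) in those labelled WT, which gave -0.49 in log2 fold change (SE 0.25), with an adjusted p of 0.391 by edgeR. In jejunum it had 5.18 (m1), 7.12 (t1) and 9.92 (t4) CPM against 11.3 (t1), 13.7 (t6) and 10.7 (t7), which gave -0.68 (SE 0.25), with an adjusted p of 0.277 by edgeR. The groups did not overlap in either tissue and the gene passed the test in neither, while Jag1 overlapped in both (log2 fold changes of 0.30 and 0.09). Jag1, Hey2, Notch1 and Vegfc are among the genes chosen after their values were seen, and the share of all genes without overlap was not counted.

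The most extreme ratios over all genes in all members belonged mostly to genes with few or no UMIs in the less mixed members, mt-Atp6 (36 in KO) and mt-Nd4 (21 in KO) being the main exceptions. Lowest in KO members were Galntl6, Gm26871, Syt1, Dlgap2, Cntn3, Carmn, Rad51b and Ptprt, and 7 of the 8 had no UMI in the less mixed WT members. Galntl6 had 47 of its 63 WT UMIs in 1 nucleus, and so did Rad51b with 47 of 52. Carmn itself had 73 UMIs in 6 WT members, at most 21 in one, and 3 UMIs in 1 KO member, and 0 UMIs in the less mixed members of both libraries. Highest in KO members were Msln, mt-Nd4, Dpp4, mt-Atp6, Slpi, Serpina3n, Gpx3 and Slit3. Gpx3 turned from 16.3 to 0.976 in members with no smooth muscle UMI. Msln, the mesothelial marker mesothelin, had 0 UMIs in WT and 61 in 10 KO members, 30 of them in 1, beside mesothelial markers that summed to 176 CPM in WT and 1250 in KO members. The part of such nuclei in these ratios was not tested beyond the less mixed members.

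Among less mixed members the lowest ratios were those of Epn2, Vegfc, D5Ertd615e, Cep85l, Nos1ap, 2900026A02Rik, Bach2 and Asap2. Epn2, an endocytic adaptor, had 20 UMIs in WT and 2 in KO, and Bach2, a transcriptional repressor, 35 and 11. Of the 25 D5Ertd615e UMIs of all WT members, 19 were in 1 nucleus. The highest were mt-Atp6, mt-Co3, Gm5127, mt-Nd4, Txndc11, Mcf2l, Csgalnact1 and Slc10a7. Csgalnact1, an enzyme of chondroitin sulfate synthesis, had 2 UMIs in WT and 29 in KO less mixed members. The mitochondrially encoded genes among them went with a higher mitochondrial share: 0.120% of members' UMIs in WT and 1.64% in KO, 0.0565% and 0.491% in the less mixed members, and 0.211% and 0.524% in the other nuclei.

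Fkbp5 and Col4a1 were higher in KO members and about as much higher in the other KO nuclei, while Sema6a was higher mainly in members. Fkbp5, a chaperone gene that glucocorticoids induce, had 15 UMIs in 11 WT and 82 UMIs in 33 KO members (3.46, 2.09 to 6.81), 3.99 in the less mixed members and 2.94 in the other nuclei. Col4a1 had 29 and 111 UMIs (2.49) and 2.63 in the other nuclei. Sema6a, a guidance ligand, had 23 UMIs in 17 WT and 103 UMIs in 29 KO members (2.89, 1.89 to 4.92), against 1.23 in the other nuclei. In bulk its mean was lower in the libraries labelled KO, at 45.4 against 59.1 CPM in colon and 71.0 against 112.6 in jejunum. Col4a1 had higher means there, at 3035 against 1530 and 2225 against 1128. Sema6a and Col4a1 were chosen after their values were seen. Of 11 basement membrane and integrin genes with 20 UMIs, 4 were 2-fold higher, against 12.5% of all genes. Itga1, an integrin, was the 1 that was 2-fold lower, against 10.1% of all genes. Of 9 junction genes, which include the selecting genes Pecam1, Cdh5 and Ptprb, 8 were above 1. Of 12 transcription factors 5 were above and 7 below 1. Over all 2809 genes at that depth, 1398 were above and 1411 below 1.

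Open chromatin of the same nuclei held few counts near panel genes. Regions had been called in each library alone, 35003 in WT and 26493 in KO, and 4 panel genes had a region within 5000 bp of their start in both libraries. No panel gene reached 10 counts in members of both. In WT members 7 of 26276 region counts lay within that distance of a panel start (2.66 per 10000, exact interval 1.07 to 5.49), against 3.53 in other nuclei. In KO members 38 of 62976 did (6.03 per 10000, 4.27 to 8.28), against 1.96, a ratio of 3.07 (2.18 to 4.22). The KO counts came from 6 regions at 5 genes: Mecom with 16 in 4 nuclei, Ushbp1 with 10 in 4, Plvap with 6 in 3, Ptprb with 4 in 2 and Flt1 with 2 in 1. Regions near smooth muscle markers had 0 counts in WT members, against 3.69 per 10000 in other nuclei, and 2.86 against 3.53 in KO. Within 100000 bp the panel had 46.8 against 49.1 per 10000 in WT and 49.1 against 46.9 in KO. Near panel starts the interval in WT members included the level of other nuclei, and the ratio of 0.755 rose to 1.19 within 1000 bp and to 1.03 for members with at least 3 selecting UMIs.

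In bulk colon the 27 panel genes did not separate the genotype labels. Of the 27, 22 were above and 5 below 0 in the log2 fold change of the libraries labelled KO over those labelled WT, with a median of 0.16 against 0.00 over all genes. Without WT t6 that median was 0.02, and without WT t1 it was 0.43. No panel gene passed the test (edgeR, adjusted p under 0.05), where 81 of 20886 genes (0.388%) did; 0 had an unadjusted p under 0.05, against 14.5% of all genes, and DESeq2 called 0. The smallest adjusted p was 0.393, of Egfl7. In bulk tissue, fewer cells of a type and less RNA per cell cannot be told apart. The sum of the panel was 762 (m1), 617.5 (t4) and 856 (t6) CPM in the libraries labelled KO and 806 (t1), 513 (t6) and 644 (t7) in those labelled WT. The groups overlapped (two-sided exact permutation p = 0.5, smallest possible 0.1).

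The 5 panel genes of smallest p in colon were Egfl7, Nos3, Cyyr1, Fli1 and Plvap. Egfl7 had 18.3 (m1), 18.4 (t4) and 21.4 (t6) CPM against 15.9 (t1), 9.04 (t6) and 13.6 (t7), which did not overlap (log2 fold change 0.59, SE 0.30). Nos3 had 9.07, 6.70 and 16.4 CPM against 8.68, 4.204 and 5.11 (0.84, SE 0.45), and the groups overlapped. Cyyr1 (0.60) did not overlap, and Fli1 (0.58) and Plvap (0.48) did. All 5 were picked for small p, which favours groups without overlap, and the share of all genes without overlap was not counted. Nos3 thus had the higher mean in the bulk libraries labelled KO and the lower level in KO members, where no test was possible.

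In bulk jejunum the panel leaned towards the libraries labelled KO without a gene passing the test. Of the 27 genes, 24 were above and 3 below 0, with a median log2 fold change of 0.51 against 0.02 over all genes. edgeR called none at an adjusted p under 0.05, where 45 of 20886 genes (0.215%) passed; 6 had an unadjusted p under 0.05, against 13.2% of all genes, and DESeq2 called 2, Fli1 and Plvap. The sum of the panel was 714 (m1), 1004 (t1) and 665 (t4) CPM against 594 (t1), 615 (t6) and 362 (t7). These groups did not overlap (two-sided exact permutation p = 0.1, the smallest possible). Without the library labelled KO t1 the median fell to 0.25, and without WT t7 to 0.27.

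Plvap, the diaphragm protein of fenestrated capillaries, had 77.4 (m1), 79.5 (t1) and 63.1 (t4) CPM in jejunum libraries labelled KO and 29.5 (t1), 45.8 (t6) and 19.3 (t7) in those labelled WT. The groups did not overlap (log2 fold change 1.22, SE 0.31, adjusted p = 0.142 by edgeR, 0.0182 to 0.428 over 16 alternatives). Fli1 had 26.6, 22.6 and 20.3 CPM against 10.2, 12.6 and 4.96. It did not overlap either (1.32, SE 0.35, edgeR adjusted p = 0.146, 0.0178 to 0.397 over 16 alternatives). Vwf had 92.7, 168 and 84.2 CPM against 56.5, 67.7 and 29.9 (1.16, SE 0.37), and Pecam1 61.7, 89.2 and 44.8 against 38.6, 38.1 and 14.2 (1.11, SE 0.40). Both were higher in every library labelled KO than in any labelled WT, with KO t1 the highest and WT t7 the lowest. Egfl7 was the fifth gene by p (0.81, SE 0.30) and did not overlap. These genes were picked for small p, which favours groups that do not overlap. The share of all genes without overlap was not counted.

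**Figure D5:**
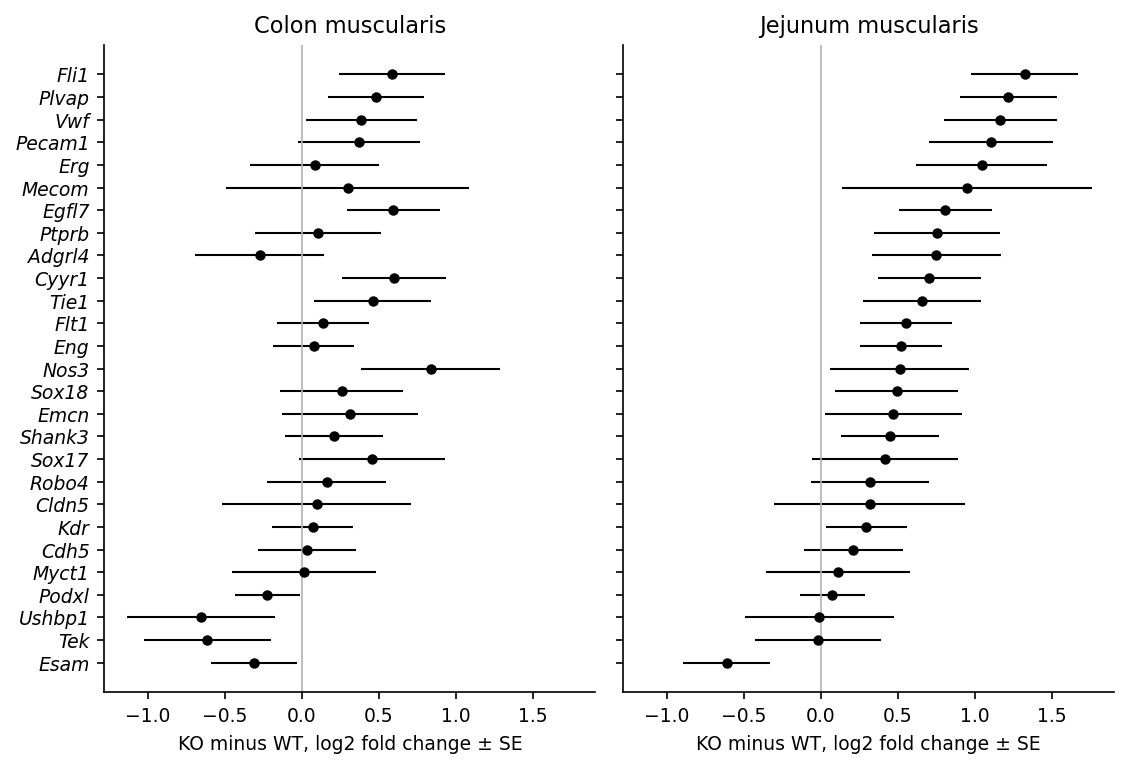
Log2 fold change of libraries labelled KO over those labelled WT, with its standard error from edgeR, for the 27 endothelial panel genes in bulk colon and jejunum muscularis (3 libraries per group), ordered by the jejunum value. Most points lie right of 0, with medians of 0.16 in colon and 0.51 in jejunum, and no gene passed the test in either tissue.

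Marker sums of other cell types were uneven between the labels too. In jejunum, macrophage markers summed to 1072 (m1), 423 (t1) and 616 (t4) CPM in the libraries labelled KO and 257 (t1), 295 (t6) and 131 (t7) in those labelled WT. Lymphatic endothelial markers had 321, 201.5 and 235 against 156, 213 and 91.2 and overlapped, and mural markers were lower in every library labelled KO, at 2590 to 3858 against 4394 to 5826. Smooth muscle markers had 88500 CPM in m1 and 41480 and 44450 in the other libraries labelled KO, against 37680 to 41050. In colon smooth muscle markers had 32970 to 43150 CPM in the libraries labelled KO against 47660 to 68870, and the colon library labelled KO t4 stood apart in fibroblast markers, at 8455 against 1917 to 3850 in the others. Macrophage markers of colon overlapped, at 348 (m1), 934 (t4) and 273 (t6) CPM against 271 (t1), 426 (t6) and 393 (t7). Lymphatic and mural markers of colon overlapped as well. The part of these marker sums in the panel's values was not tested.

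The genes that lead the members' RNA passed the test in neither tissue. Of the 19 tested in bulk, 16 were above 0 in colon (median 0.37) and 16 in jejunum (median 0.75), and edgeR called 0 in each. In colon 1 had an unadjusted p under 0.05, against 14.5% of all genes, and that gene, Ace, was lower in the libraries labelled KO (log2 fold change -1.56). In jejunum 8 did, against 13.2% of all genes, and all 8 were higher in the libraries labelled KO. DESeq2 also called 0 in each. The difference between the changes in colon and in jejunum was called for 0 of 27 panel genes and 0 of 20886 genes in all (0.0%), with 0 panel genes and 4.16% of all genes at an unadjusted p under 0.05 and, by DESeq2, 0 panel genes and 38 of all genes. Larger values in jejunum than in colon were thus not shown to differ.

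A few genes of the role lists passed the test in bulk. Klf2 (chr8:72319033-72321656), a factor that blood flow induces in endothelium, had 239 (m1), 153 (t4) and 436.5 (t6) CPM in colon libraries labelled KO and 65.1 (t1), 45.3 (t6) and 58.0 (t7) in those labelled WT. It rose (log2 fold change 2.30, SE 0.40, edgeR adjusted p = 0.0404), with the call kept in 7 of 16 alternatives and adjusted p from 5.46e-06 to 0.175. The call was lost without colon KO t6, without each of the colon WT libraries, without jejunum KO t1 or any jejunum WT library, and in a fit of the colon libraries alone. In the nuclei Klf2 had 9 UMIs in 6 WT and 11 UMIs in 8 KO members. Members held 96575 UMIs in WT and 144775 in KO, so the share of Klf2 was not higher in KO members, on few UMIs. Ptgs1, the cyclooxygenase of vessels and other cells, had 362, 268 and 509 CPM against 165, 128 and 161 and rose as well (1.33, SE 0.24, edgeR adjusted p = 0.0433, kept in 5 of 16 alternatives, 3.91e-05 to 0.2). Of the 12 libraries left out in turn, colon KO t4 and jejunum KO m1 were those whose loss kept the call. In nuclei Ptgs1 was as high in others as in members, with ratios of 0.898 and 1.01.

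In jejunum Nid2 (chr14:19751265-19811787), a basement membrane protein also listed for tip cells, had 13.9 (m1), 15.5 (t1) and 13.6 (t4) CPM in libraries labelled KO and 43.4 (t1), 43.1 (t6) and 66.2 (t7) in those labelled WT. It fell by 1.83 on the log2 scale (SE 0.23, edgeR adjusted p = 0.0143, 4.57e-09 to 0.0772 over 16 alternatives), and the call was lost without jejunum KO t4 or WT t7. Members had 0 UMIs of Nid2 in both libraries, which allows up to 31.1 CPM in WT and 20.7 in KO. Fkbp5 rose in colon (2.33, SE 0.32, edgeR adjusted p = 0.0192) and in jejunum (2.20, SE 0.32, adjusted p = 0.0223), with 13 and 12 of 16 alternatives keeping the call. It had 125 (m1), 149 (t4) and 194 (t6) CPM in colon libraries labelled KO against 25.1 (t1), 45.4 (t6) and 22.1 (t7), and 211, 187 and 212 against 34.9, 63.0 and 35.0 in jejunum. The colon call was lost without KO t6 or WT t1 and in a fit of the colon libraries alone, and the jejunum call without KO m1, KO t4, WT t7 or WT t1. Errfi1 (2.19 and 1.46) and Mt1 (3.17 and 2.52) of the glucocorticoid list also rose in both tissues, Cebpd in colon (2.68) and the immediate early gene Maff in jejunum (4.40). Of these 6 calls, each was lost in 1 to 10 of 16 alternatives, and only that of Errfi1 in colon was kept whichever library was left out. These lists were written with the bulk results known and are no independent evidence of a direction. These genes are expressed by many cell types of the gut wall.

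Along the gut, edgeR called no panel gene between WT jejunum and WT colon. Of the 27 genes, 22 were lower in jejunum, with a median log2 fold change of -0.38 against -0.04 over all genes, where 325 of 20886 genes (1.56%) passed. An unadjusted p under 0.05 was found for 4 panel genes, against 13.1% of all genes, and DESeq2 called 1. That gene, Esam, had 39.7 (t1), 33.4 (t6) and 55.5 (t7) CPM in WT jejunum and 15.0, 18.0 and 27.1 in WT colon (1.10, SE 0.28, edgeR adjusted p = 0.0914, 0.0112 by DESeq2). Among role-list genes, Pcdh17, a protocadherin, had 51.6, 53.2 and 45.4 CPM in WT jejunum against 9.67, 8.77 and 8.70 in WT colon and passed (2.47, kept in 17 of 17 alternatives). Vegfd, a lymphatic growth factor, also passed in all 17 (1.52). Flt4, the lymphatic VEGF receptor, fell by 1.94 and kept the call in 10 of 17, losing it without any colon WT library, without jejunum WT t7 or t1, with the replicate block (adjusted p = 0.191, range over alternatives 8.86e-05 to 0.191) and in a fit of WT libraries alone. Rgs5, Prkcq, Trp53i11, Ednrb, Slit2 and Nid2 also rose and Maff fell, each kept in 5 to 16 of 17.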

How the data were processed

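RNA was measured in single nuclei of colon muscularis (1 WT and 1 KO library) and in 12 bulk libraries of colon and jejunum muscularis. The submitters' processing notes name STAR 2.0.4b, Subread, featureCounts 1.4.5, edgeR and Cell Ranger, with builds GRCm38 and mm10, without roles. Counts of genes and open regions per barcode were deposited for the nuclei. All gene values were even, whereas 11.6% and 11.5% of region values were odd, so gene values were halved to UMIs, which is an inference. No doublet caller was run. Nuclei, members and UMI sums were computed in Python 3.11.15 (numpy 2.4.6, pandas 2.3.3) with exact intervals from scipy 1.17.1. Gene coordinates are those of GENCODE M21, in whose GRCm38 genes 99.7% of the listed starts lay.

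For bulk the authors deposited raw counts per gene. Of 40757 entries 276 repeated a gene and were dropped, leaving 40481, of which 20886 passed filterByExpr. edgeR 4.0.16 (R 4.3.3; TMM, robust quasi-likelihood, 4 group means over 12 libraries, Benjamini-Hochberg) was the test, checked on simulated counts, and DESeq2 1.42.0 an alternative. CPM are TMM-scaled. Counts of overlapping or antisense genes are uncertain, since no source used here states whether strand was used.

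Members, lists and tests were chosen with earlier results of these data known. Named genes were the panel genes with 20 UMIs, the 20 highest ratios of members to others, the 8 highest and 8 lowest KO to WT ratios, and in bulk the called list genes and the 5 panel genes of smallest p per tissue; others are stated as chosen later. The rule for open regions (10 counts in members of each library) found none, so summed counts are given.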

Additional observations from a re-analysis of the deposited data

How the results depend on the processing

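Alternatives were RLE size factors, no filter on low counts, DESeq2, only the libraries compared, leaving out each library, and a replicate block in bulk, and other thresholds, thinning and less mixed members in nuclei. Those with less mixed members, at least 5 selecting UMIs, unthinned deep nuclei and wider windows around genes were chosen after the data were seen. Of 797 alternative values, no log2 fold change of a bulk gene changed sign, but 14 of 166 alternative ratios of nuclei fell on the other side of 1. In 4 of these the interval of the ratio over all members leaves out 1: Ptprt went from 0.0392 to 1.27 in less mixed members, where it had 0 WT UMIs and 1 KO UMI, and without any smooth muscle UMI Gpx3 went from 16.3 to 0.976, Flt1 from 1.38 to 0.856 and Vwf from 1.54 to 0.861. The cause was not tested. The others were those of Tek, Emcn, Erg, Robo4, Adgrl4 and Mecom, and the open chromatin of WT members near panel genes (0.755, against 1.03 with at least 3 selecting UMIs and 1.19 within 1000 bp). Over all genes DESeq2 called 960 in colon, 805 in jejunum, 1156 between WT tissues and 38 for the difference, where edgeR called 81, 45, 325 and 0. In bulk jejunum the panel genes called rose from 0 to 2 with DESeq2 (Fli1, adjusted p = 0.0178, and Plvap, 0.0182). For WT jejunum against WT colon they went from 0 to 1, Esam, with DESeq2 and with the replicate block (adjusted p = 0.0303), and ranged from 0 to 1 when 1 library was left out, with Esam called without colon WT t7 (0.047) or jejunum KO m1 (0.0478). The replicate block left the difference between tissues at 0 panel genes (10 libraries, 5 tags). The labels do not say that a tag marks 1 animal, and libraries of the same tag correlated at -0.163 to 0.1 in their deviations from group means, so the block is no more than a check. The panel's median log2 fold change ranged from 0.02 to 0.43 in colon and from 0.25 to 0.68 in jejunum when 1 library was left out. The share of members in WT was 1.02% with at least 3 selecting UMIs, 3.74% without the barring genes, 0.951% after thinning, 0.846% for less mixed members and 0.776% with at least 5 selecting UMIs. In KO it was 6.72% without the barring genes and 2.06% both for less mixed members and with at least 5 selecting UMIs. Each condition changes which nuclei count as members, and thinning also limits the total to nuclei of at least 1000 UMIs (1998 in WT and 1224 in KO). The part of each in these shifts was not tested. Members without any smooth muscle UMI and other gene minima were also tried. Of 506 alternative values of single bulk genes, 394 stayed on their side of the threshold, 110 lost the call and 2 gained it. Depth limits what the nuclei can show: members held 96575 UMIs in WT and 144775 in KO, so a gene with 3 UMIs stands at 31.1 and 20.7 CPM.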
